A study of Homo sapiens with 15 samples.

Results

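ERK feedback and ETS target genes are the transcripts by which a cell reads out, and then restrains, signalling through the kinase ERK. They were represented here by 10 genes taken by symbol from the count tables: the dual-specificity phosphatases DUSP4, DUSP5 and DUSP6, the Sprouty genes SPRY2 and SPRY4, the Sprouty-related genes SPRED1 and SPRED2, the ETS transcription factors ETV4 and ETV5, and PHLDA1. All 10 were found among the 69215 genes listed, each at 1 identifier, and all 10 were among the 12769 genes that passed the filter on low counts. The samples were 15 RNA-seq libraries of Caco-2, a human colorectal adenocarcinoma line that grows as an enterocyte-like monolayer. In 5 libraries the cells had been exposed to polysorbate 80 (PS80) at 0.05% for 24 h, in 5 to polysorbate 20 (PS20) at 0.05% for 24 h, and in 5 to neither (control, labelled as unexposed). Both polysorbates are nonionic surfactants used as food emulsifiers, sorbitan esters carrying polyoxyethylene chains. They differ in the fatty acid, which is oleate in PS80 and laurate in PS20. The labels do not say whether replicates were separate cultures, so p-values here measure only the spread between these libraries, and all 15 come from 1 cell line.

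Growth factors such as amphiregulin and epiregulin bind receptor tyrosine kinases, which activate RAS, the RAF and MEK kinases and finally ERK. Active ERK relieves repression by Capicua and activates ETS factors, so that ETV4, ETV5, the Sprouty and SPRED genes and the ERK phosphatases are transcribed. Sprouty and SPRED proteins then act back on the receptors and on RAS, and the DUSP proteins remove the activating phosphates from ERK, which closes the loop. In the gut epithelium this pathway is known for its part in proliferation, migration and wound repair. The levels of these transcripts are used as a readout of ERK output, although they measure mRNA and not the kinase itself.

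Library totals ranged from 6769409 to 42271053 counts with PS80, from 6749086 to 17251564 with PS20 and from 4183096 to 13616301 in control, and the 2 shallowest libraries were control replicates 1 and 3. Counts on mitochondrial genes were 1.45% to 2.97% of the total with PS80, 2.03% to 2.58% with PS20 and 1.50% to 1.91% in control, and their part in the results was not tested. PS80 replicates 1, 3, 4 and 5 were counted with featureCounts 2.0.3 and the other 11 libraries with 2.0.0, so in those 4 libraries version and exposure cannot be told apart. Of 10 intestinal epithelial markers, 8 exceeded 1 CPM (the count scaled to the size of the library) in every group, among them EPCAM, VIL1 and CDX2, while KRT20 had no count in any library. Their summed level was 10440 to 11080 CPM with PS80, 8587 to 9303 CPM with PS20 and 10210 to 12030 CPM in control, so PS20 lay below control without overlap. Of the 8 tested, 1 was higher and none lower with PS80, where 17.4% of all tested genes were higher and 16.0% lower. With PS20, 2 were higher and 4 lower, where 24.4% of all tested genes were higher and 23.9% lower. KRT8, a keratin, averaged 3948 CPM with PS80, 2678 CPM with PS20 and 4426 CPM in control. KRT18, KRT19, VIL1 and HNF4A also averaged lower with PS20 than in control. EPCAM (1017 against 969.5 CPM), CDH1 (1702 against 1570 CPM) and CDX2 (243.8 against 189.1 CPM) averaged higher with PS20, so the markers split. Of 12 markers of fibroblasts, endothelium and blood cells, 5 exceeded 1 CPM, with summed levels of 134 to 185 CPM with PS80, 142 to 161 CPM with PS20 and 152 to 170 CPM in control. COL1A1 held most of that sum, at 105 CPM with PS80, 99.9 CPM with PS20 and 96.1 CPM in control, whereas DCN, CDH5, PTPRC and CD68 were at 0.0501 CPM or less in every group. PDGFRB averaged 16.1 CPM with PS80, 14.9 CPM with PS20 and 29.4 CPM in control. PECAM1 ran the other way, at 12.2 CPM with PS80, 10.7 CPM with PS20 and 8.16 CPM in control. Of the 5 tested, 1 was higher and 1 lower with PS80, and none was higher and 1 lower with PS20, against the same shares over all genes. The part of these markers in the results was not tested.

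With PS80, 8 of the 10 genes were higher than in control and none was lower, against a background of 17.4% of all tested genes higher and 33.4% called in either direction. In bulk RNA, a change in the number of cells that express a gene and a change in its RNA per cell cannot be told apart. With PS20, 6 were higher and 1, PHLDA1, was lower, against a background of 24.4% higher and 23.9% lower, or 48.3% in either direction. Between the 2 polysorbates, 5 were higher with PS80 and none was lower, against 18.2% of all tested genes higher and 17.2% lower, together 35.4%. A gene was called at an adjusted p under 0.05 in edgeR's quasi-likelihood test, with p-values adjusted by the Benjamini-Hochberg method over all tested genes. The median log2 fold change of the 10 genes was 0.73 for PS80 over control, 0.47 for PS20 over control and 0.38 for PS80 over PS20, where the median over all tested genes was 0.0017, 0.011 and -0.0021. Both comparisons with control use the same 5 control libraries. The 10 genes were chosen with earlier results of these data known, so their share against the background is a description and not a test.

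**Figure D1:**
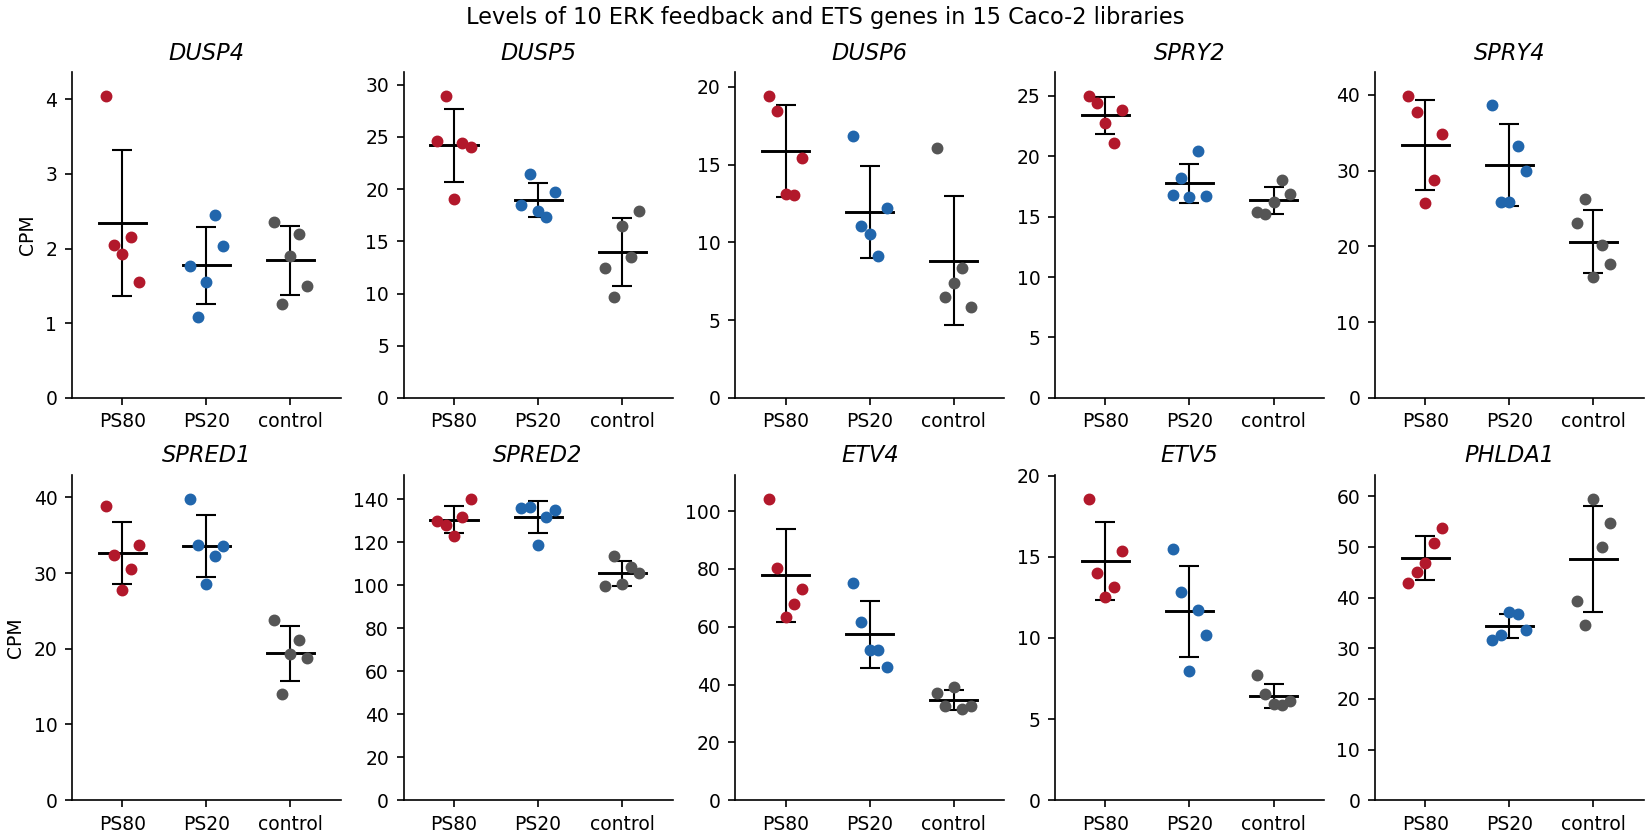
Levels in CPM (vertical axes from 0) of the 10 genes in PS80, PS20 and control libraries, in this order along each horizontal axis. Each point is 1 library, in replicate order, and bars are the mean and SD of 5 libraries. ETV4 and ETV5 lay higher with PS80 and with PS20 than in any control library, and PHLDA1 lay lower in all 5 PS20 libraries than in any PS80 library.

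**Figure D2:**
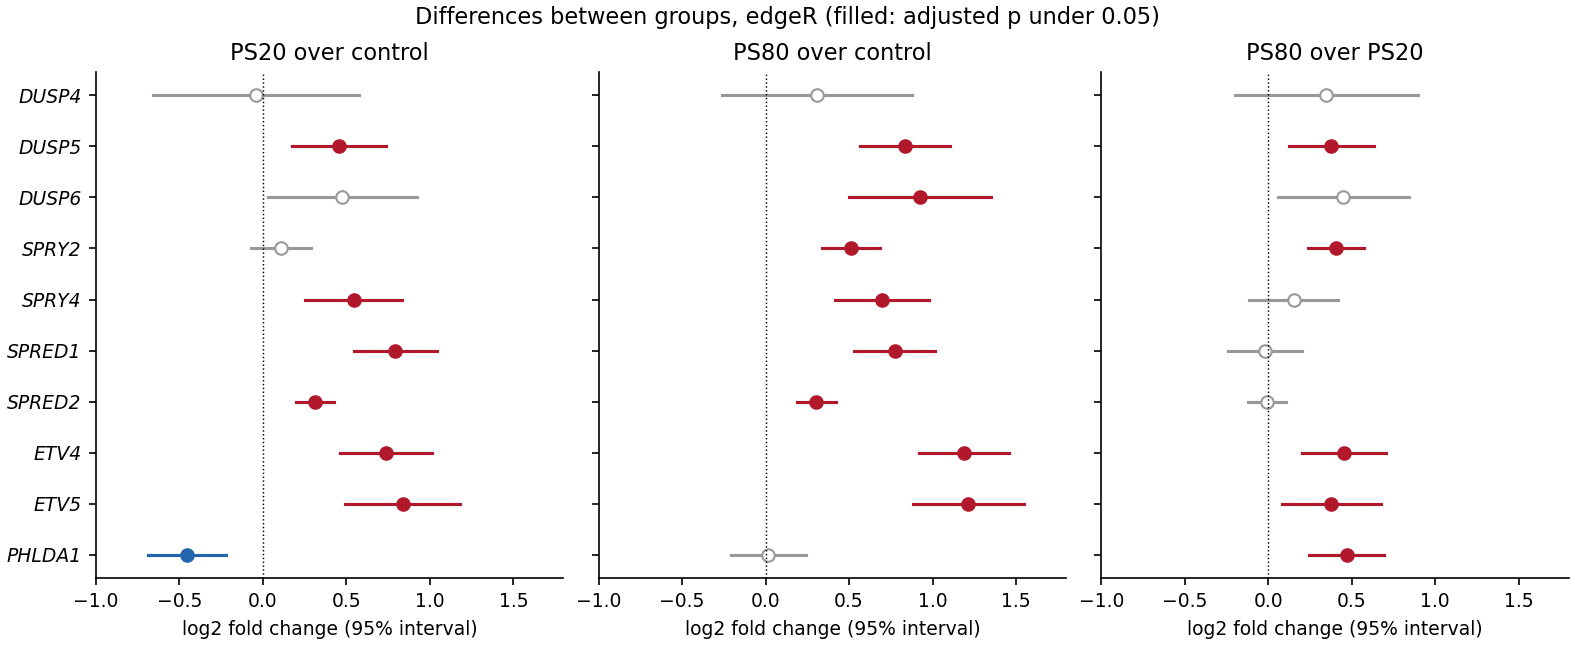
Log2 fold changes of the 10 genes with 95% intervals, for PS20 over control, PS80 over control and PS80 over PS20. Filled points passed an adjusted p of 0.05, with red for higher and blue for lower. SPRED1 and SPRED2 lay close to 0 between the polysorbates, and ETV4, SPRY2 and PHLDA1 did not.

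The 3 comparisons gave several patterns across the 10 genes, and the upstream sequences of 4 genes are shown as examples of them. SPRED1 was higher with both polysorbates, SPRY2 was higher with PS80 than with PS20 or in control, DUSP6 was higher with PS80 than in control, and PHLDA1 was lower with PS20. Each sequence is the 250 bases before the RefSeq start site, on the strand of the gene, in GRCh38.p14 (for SPRY2, the first of 3 start sites in the table): SPRED1 at chr15:38252586-38252835 on the plus strand, SPRY2 at chr13:80341127-80341376, DUSP6 at chr12:89352502-89352751 and PHLDA1 at chr12:76031777-76032026 on the minus strand. Capitals mark matches, on either strand, to the ETS motif CCGGAA or to the PEA3-type ETS motif AGGAAG. The shorter GGAA within both was not searched alone, and its other occurrences are not marked.
SPRED1: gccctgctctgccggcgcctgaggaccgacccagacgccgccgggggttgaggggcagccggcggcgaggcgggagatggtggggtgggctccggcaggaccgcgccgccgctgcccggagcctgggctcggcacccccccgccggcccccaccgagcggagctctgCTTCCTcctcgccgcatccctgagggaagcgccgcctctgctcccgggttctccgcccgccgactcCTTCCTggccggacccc
SPRY2: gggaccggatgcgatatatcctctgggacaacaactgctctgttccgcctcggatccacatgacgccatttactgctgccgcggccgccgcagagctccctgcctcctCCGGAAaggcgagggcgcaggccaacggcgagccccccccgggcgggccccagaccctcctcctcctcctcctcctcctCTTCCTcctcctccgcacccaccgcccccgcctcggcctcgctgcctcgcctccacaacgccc
DUSP6: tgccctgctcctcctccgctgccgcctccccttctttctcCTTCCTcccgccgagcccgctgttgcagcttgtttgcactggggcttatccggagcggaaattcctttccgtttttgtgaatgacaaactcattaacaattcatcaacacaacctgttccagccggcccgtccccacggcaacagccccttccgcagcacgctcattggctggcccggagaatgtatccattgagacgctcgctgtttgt
PHLDA1: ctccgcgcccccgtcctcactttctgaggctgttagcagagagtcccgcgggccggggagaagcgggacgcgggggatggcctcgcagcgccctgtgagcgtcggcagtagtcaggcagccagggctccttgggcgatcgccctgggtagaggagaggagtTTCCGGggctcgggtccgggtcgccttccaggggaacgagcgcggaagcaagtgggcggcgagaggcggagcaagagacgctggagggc
The SPRED1 window held AGGAAG on the opposite strand at 2 places, positions -83 and -17 counted from the start site. The SPRY2 window held CCGGAA at position -142 and AGGAAG, on the opposite strand, at -63. The DUSP6 window held 1 match to AGGAAG, at -210, and the PHLDA1 window 1 match to CCGGAA, at -89, both on the opposite strand. Among 35116 windows of the same length in the RefSeq table, 28.7% held AGGAAG and 14.5% held CCGGAA, so that single matches are frequent. The windows at the other SPRY2 start sites each held AGGAAG, those of SPRED2 held it 3 times at 1 start site and 1 time at the other, and the SPRY4 window held neither motif. No match to the form TGAATGNA of the Capicua motif (3.25% of windows), the AP-1 motif TGAGTCA (4.2%) or the CRE TGACGTCA (1.65%) lay in the windows of the 6 genes with an entry, which were these 4, SPRED2 and SPRY4. Other forms of these motifs were not searched. No matches overlapped in the 4 windows shown. DUSP4, DUSP5, ETV4 and ETV5 had no entry. A match describes the letters and not a bound site.

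ETV4 and ETV5 encode PEA3-group ETS transcription factors, which ERK both activates and induces, and they had the highest fold changes of the 10 genes with PS80. ETV4 (ENSG00000175832.13, chromosome 17 from 43527844 to 43579620, minus strand, in the files' GRCh38) was at 104, 80.4, 63.2, 67.9 and 73.2 CPM in PS80 replicates 1 to 5. It was at 75.2, 61.6, 51.8, 52.1 and 45.9 CPM in the PS20 libraries and at 37.0, 32.6, 39.3, 31.6 and 32.6 CPM in the control libraries. Every library of either polysorbate therefore exceeded every control library, while PS80 and PS20 overlapped. The level was 2.28-fold that of control with PS80 (log2 fold change 1.19 ± 0.13, SE, adjusted p = 1.16e-06) and 1.67-fold with PS20 (0.74 ± 0.13, adjusted p = 1.05e-04), and 1.37-fold higher with PS80 than with PS20 (0.45 ± 0.12, adjusted p = 0.00614). With replicates 1 and 2 alone, the difference between the polysorbates missed the threshold at a like size (0.43, adjusted p = 0.0505 by edgeR).

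ETV5 (ENSG00000244405.8, chromosome 3 from 186046314 to 186110318, minus strand) was less abundant and moved with ETV4. It was at 18.6, 14.0, 12.5, 13.1 and 15.4 CPM in PS80 replicates 1 to 5. With PS20 it was at 15.5, 12.8, 7.99, 11.7 and 10.2 CPM, and in control at 7.70, 6.51, 5.96, 5.85 and 6.13 CPM. Again no polysorbate library fell within the control range, although PS20 replicate 3 lay close to the highest control. ETV5 was 2.32-fold the control level with PS80 (log2 fold change 1.22 ± 0.16, adjusted p = 9.03e-06) and 1.79-fold with PS20 (0.84 ± 0.17, adjusted p = 2.91e-04). Its difference between PS80 and PS20 (0.38 ± 0.14, adjusted p = 0.0438) lay close to the threshold. Leaving out 1 library ended the call with a smaller fold for PS20 replicate 3 (0.24, adjusted p = 0.178) and PS80 replicate 1 (0.29, adjusted p = 0.127). At log2 fold changes of 0.34 to 0.39 it also ended without PS80 replicate 5 (adjusted p = 0.0837), PS20 replicate 4 (0.0696) or 5 (0.101), or control replicate 4 (0.0505) or 5 (0.0509), all by edgeR. Within replicates 1 and 2 the difference was 0.19 (adjusted p = 0.578), and within replicates 3 to 5 it was 0.53 (adjusted p = 0.00270). Expressed as deviations from each group's mean log2 CPM, ETV4 and ETV5 had a Pearson r of 0.761 over the 15 libraries, the highest of the 45 pairs among the 10 genes, given as a description since the 2 genes share libraries and depth.

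The calls for the Sprouty genes differed, and differences between these genes were not tested. SPRY2, an inhibitor that acts below receptor tyrosine kinases, was at 24.9, 24.4, 22.8, 21.1 and 23.8 CPM in PS80 replicates 1 to 5. The PS20 libraries had 16.8, 18.2, 16.7, 20.4 and 16.7 CPM of SPRY2 and the control libraries 15.4, 15.2, 16.2, 18.0 and 16.9 CPM. All 5 PS80 libraries lay above all 10 others, and PS20 overlapped control. SPRY2 was 1.43-fold the control level with PS80 (log2 fold change 0.51 ± 0.08, adjusted p = 9.29e-05) and 1.33-fold the PS20 level (0.41 ± 0.08, adjusted p = 5.27e-04), and it did not pass for PS20 over control (0.11, 95% interval -0.07 to 0.29, adjusted p = 0.363). The gene (ENSG00000136158.12) lies on chromosome 13 from 80335976 to 80341126, minus strand, with no exonic base shared with another gene.

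SPRY4, which restrains signalling between RAS and RAF, was at 39.8, 37.8, 25.7, 28.8 and 34.8 CPM in PS80 replicates 1 to 5. The values were 38.6, 25.9, 25.9, 33.2 and 30.0 CPM with PS20, and 23.1, 26.3, 16.0, 20.1 and 17.7 CPM in control. The lowest PS80 library and the 2 lowest PS20 libraries fell just under the highest control, replicate 2, so the groups touched. SPRY4 was 1.62-fold the control level with PS80 (0.70 ± 0.14, adjusted p = 5.30e-04) and 1.46-fold with PS20 (0.54 ± 0.14, adjusted p = 0.00293). Between the polysorbates the log2 fold change was 0.15, with a 95% interval of -0.11 to 0.42 (adjusted p = 0.380), which leaves room for a difference in either direction. The PS20 call was lost with replicates 1 and 2 alone (0.36, adjusted p = 0.134), and with replicates 3 to 5 alone the log2 fold change was 0.67 (adjusted p = 4.53e-05 by edgeR). SPRY4 (ENSG00000187678.10) spans chromosome 5 from 142310427 to 142326455, minus strand, and its antisense neighbour SPRY4-AS1 had at most 12 counts in any library.

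SPRED1 and SPRED2, which bring neurofibromin to the membrane to switch off RAS, rose with both polysorbates to like levels. SPRED1 was at 38.9, 32.4, 27.8, 30.5 and 33.8 CPM in PS80 replicates 1 to 5. In the PS20 libraries it was at 39.8, 33.7, 28.6, 32.2 and 33.6 CPM, and in the control libraries at 23.7, 14.0, 19.3, 21.2 and 18.8 CPM. All 10 polysorbate libraries exceeded all 5 controls, and the polysorbates covered the same range. The fold over control was 1.71 with PS80 (log2 fold change 0.77 ± 0.12, adjusted p = 4.23e-05) and 1.73 with PS20 (0.79 ± 0.12, adjusted p = 1.28e-05). PS80 over PS20 gave -0.02, with a 95% interval of -0.24 to 0.20 (adjusted p = 0.904), which is 0.845-fold to 1.15-fold.

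SPRED2 was the most abundant of the 10 genes, and its change was small and even. It was at 129.8, 128, 123, 132 and 140.3 CPM in PS80 replicates 1 to 5. With PS20 it was at 136, 136, 119, 132 and 135 CPM, and in control at 99.5, 113.5, 101, 108 and 106 CPM. No polysorbate library fell within the control range. The fold over control was 1.23 with PS80 (0.30 ± 0.06, adjusted p = 2.84e-04) and 1.24 with PS20 (0.31 ± 0.06, adjusted p = 1.00e-04). Between PS80 and PS20 the log2 fold change was -0.0073, with a 95% interval of -0.12 to 0.11 (adjusted p = 0.935). With replicates 1 and 2 alone the PS80 change over control was 0.27 (adjusted p = 0.102) and missed the threshold. SPRED1 (ENSG00000166068.13) lies on chromosome 15 from 38252836 to 38357249, plus strand, and SPRED2 (ENSG00000198369.10) on chromosome 2 from 65310851 to 65432637, minus strand.

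Of the 3 phosphatases, DUSP5 and DUSP6 were called higher with PS80 and DUSP4 was not, and differences between these genes were not tested. DUSP5, a nuclear phosphatase selective for ERK, was at 24.6, 28.9, 19.0, 24.4 and 24.0 CPM in PS80 replicates 1 to 5. It was at 18.4, 21.4, 17.9, 17.3 and 19.7 CPM with PS20 and at 12.4, 9.66, 16.4, 13.5 and 17.9 CPM in control. All PS80 libraries exceeded all controls, and 4 of 5 PS20 libraries did. The fold over control was 1.78 with PS80 (0.83 ± 0.13, adjusted p = 6.41e-05) and 1.37 with PS20 (0.45 ± 0.14, adjusted p = 0.00875), and PS80 was 1.30-fold PS20 (0.38 ± 0.12, adjusted p = 0.0191). The PS20 change was 0.89 within replicates 1 and 2 (adjusted p = 0.00263) and 0.24 within replicates 3 to 5 (adjusted p = 0.108), and the PS80 change 1.33 (adjusted p = 1.42e-04) and 0.56 (7.15e-04) there. Control replicates 1 and 2 had the 2 lowest levels of DUSP5 of all libraries. The call between the polysorbates, though not the direction, was lost without PS80 replicate 2 (0.30, adjusted p = 0.0679), PS20 replicate 3 (0.35, adjusted p = 0.0532) or PS20 replicate 4 (0.35, adjusted p = 0.0518), and with replicates 1 and 2 alone (0.44, adjusted p = 0.0815), all by edgeR.

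DUSP6, the cytoplasmic ERK phosphatase and a widely used transcript readout of ERK, was at 19.4, 18.5, 13.1, 13.0 and 15.4 CPM in PS80 replicates 1 to 5. It was at 16.8, 11.05, 10.6, 9.15 and 12.2 CPM with PS20, and at 16.0, 6.51, 7.38, 8.34 and 5.86 CPM in control. Control replicate 1 stood at the level of the PS80 libraries, while the other 4 controls lay below every polysorbate library. DUSP6 was 1.90-fold the control level with PS80 (0.92 ± 0.20, adjusted p = 0.00154). For PS20 over control the log2 fold change of 0.48 did not pass (95% interval 0.03 to 0.92, adjusted p = 0.0726), and it passed without control replicate 1 (0.72, adjusted p = 0.00248) or without PS20 replicate 4 (0.56, adjusted p = 0.0490). PS80 over PS20 gave 0.45 (95% interval 0.06 to 0.84, adjusted p = 0.0696), which did not pass. It passed without control replicate 1 (adjusted p = 0.0215) and without PS20 replicate 1 (0.0211). With replicates 1 and 2 alone the PS80 change over control was 0.85 (adjusted p = 0.0527). Of the exonic bases of DUSP6 (ENSG00000139318.8, chromosome 12 from 89347235 to 89352501, minus strand), 28.6% lie in an antisense gene without a symbol, which had at most 4 counts in any library, and the counting used no strand. Reads in these bases may have been left uncounted, which would make the DUSP6 levels too low and was not tested.

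DUSP4, a nuclear phosphatase induced by ERK, was the least abundant of the 10 genes, with 8 to 85 counts per library. It was at 4.04, 2.05, 1.93, 2.15 and 1.55 CPM in PS80 replicates 1 to 5, at 1.77, 1.08, 1.55, 2.45 and 2.03 CPM with PS20 and at 2.35, 1.26, 1.91, 2.20 and 1.50 CPM in control. The groups overlapped throughout, apart from PS80 replicate 1. None of the 3 comparisons passed, with log2 fold changes of 0.31 for PS80 over control (95% interval -0.26 to 0.88, adjusted p = 0.417), -0.04 for PS20 over control (-0.66 to 0.58, adjusted p = 0.925) and 0.35 for PS80 over PS20 (-0.20 to 0.90, adjusted p = 0.327). At this depth a change of the size seen for ETV4 with PS20 lay inside the PS80 interval. DUSP4 (ENSG00000120875.9) spans chromosome 8 from 29333064 to 29350684 and DUSP5 (ENSG00000138166.6) chromosome 10 from 110497907 to 110511533.

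PHLDA1, a pleckstrin homology-like protein that ERK signalling induces and that has been used as a marker of human intestinal stem cells, was the 1 gene of the 10 called lower with PS20. It was at 42.8, 45.0, 46.8, 50.8 and 53.7 CPM in PS80 replicates 1 to 5. With PS20 it was at 31.7, 32.6, 37.2, 36.7 and 33.7 CPM, and in control at 39.4, 34.6, 59.5, 49.98 and 54.8 CPM. All PS20 libraries lay below all PS80 libraries and below 4 of 5 controls, and control was spread over the range of both. PHLDA1 was at 0.730 of the control level with PS20 (log2 fold change -0.45 ± 0.11, adjusted p = 0.00219), and with PS80 it did not differ detectably (0.02, 95% interval -0.21 to 0.24, adjusted p = 0.925). PS80 was 1.39-fold PS20 (0.47 ± 0.11, adjusted p = 0.00191). The PS20 change was -0.57 within replicates 3 to 5 (adjusted p = 9.51e-07) and -0.19 within replicates 1 and 2 (adjusted p = 0.289), whereas the difference between the polysorbates was 0.50 (7.73e-06) and 0.46 (0.0202) there. PHLDA1 (ENSG00000139289.14) lies on chromosome 12 from 76025447 to 76031776, minus strand, and 9.35% of its exonic bases lie in the antisense gene PHLDA1-AS1, which had no count in any library. As for DUSP6, reads in these bases may have been left uncounted, which was not tested.

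**Figure D3:**
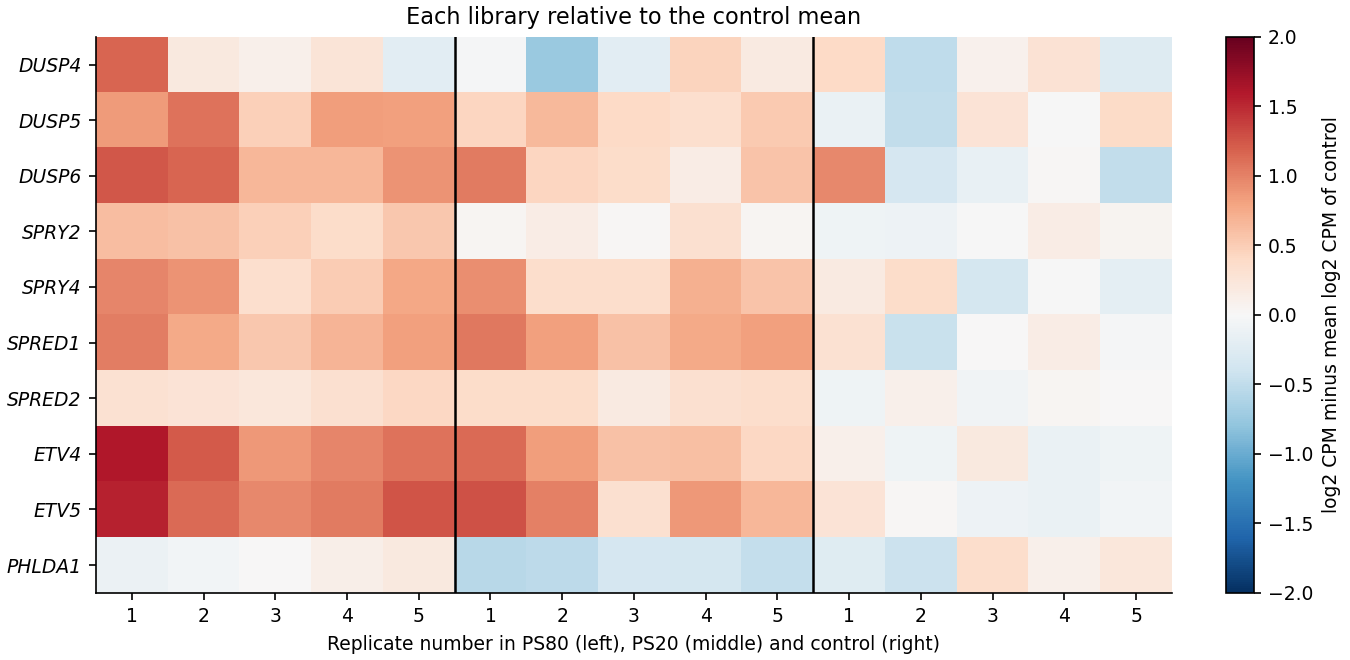
Log2 CPM of each gene (rows) in each library (columns, by replicate number in PS80, PS20 and control) minus the gene's mean log2 CPM in control. Red is higher and blue lower than control. The ETV4 and ETV5 rows are red in all 10 polysorbate libraries, DUSP6 is also red in control replicate 1, and PHLDA1 is blue in all 5 PS20 libraries.

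For 6 of the 10 genes (DUSP5, SPRY2, SPRED1, SPRED2, ETV4 and ETV5) the PS80 libraries did not overlap control and lay higher, against 10.3% of all tested genes (19.6% in either direction). For 4 (SPRED1, SPRED2, ETV4 and ETV5) the same held for PS20 over control, against 16.2% (32.5% in either direction). Between PS80 and PS20 it held for SPRY2 and PHLDA1, against 11.7% (22.7%).

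Per kilobase of exon, the order of the genes in control was SPRED2 (19.2 ± 1.04 CPM per kb, SD, n = 5), ETV4 (9.85 ± 0.955), PHLDA1 (8.06 ± 1.77), DUSP5 (5.51 ± 1.28), SPRY2 (5.09 ± 0.355), SPRY4 (3.15 ± 0.631), SPRED1 (2.50 ± 0.465), DUSP6 (2.29 ± 1.07), ETV5 (1.11 ± 0.130) and DUSP4 (0.253 ± 0.0632). SPRED2 over ETV4, SPRY2 over SPRY4, DUSP6 over ETV5 and ETV5 over DUSP4 were separated in all 5 libraries, and the other neighbours in this order overlapped. The highest and lowest levels differed 75.7-fold. The lengths include bases shared with antisense genes, 28.6% for DUSP6 and 9.35% for PHLDA1. If reads there were left uncounted, these genes stand too low in the order. With PS80 the level of ETV4 was 22.1 ± 4.59 CPM per kb, overlapping SPRED2 at 23.7 ± 1.16 CPM per kb, whereas with PS20 ETV4 (16.3 ± 3.27) still lay below SPRED2 (23.9 ± 1.34) in every library.

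Genes that act before and beside these 10 in the pathway were counted from lists (the plot of called genes by list shows all of them). The lists were chosen with earlier results known, and each count stands against 17.4% higher and 16.0% lower over all tested genes with PS80, and 24.4% higher and 23.9% lower with PS20. Among EGF receptor ligands, 4 of 8 were tested, of which 2 were higher and none lower with PS80, and likewise with PS20. AREG, amphiregulin, was at 199 ± 9.10 CPM with PS80, 206 ± 6.82 CPM with PS20 and 120.4 ± 8.46 CPM in control. EREG, epiregulin, was 1.89-fold the control level with PS80 (adjusted p = 2.19e-05) and 1.95-fold with PS20 (adjusted p = 3.78e-06). HBEGF, another ligand of the receptor, was 1.28-fold higher with PS80 than with PS20 (adjusted p = 0.0161), a log2 fold change of 0.36. The call was lost in the smaller sets of libraries, at 0.53 within replicates 1 and 2 (adjusted p = 0.0871) and 0.28 within replicates 3 to 5 (adjusted p = 0.0828).

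Of 13 receptor tyrosine kinases tested, 5 were higher and 2 lower with PS80, and 5 were higher and 3 lower with PS20. EPHA2, an ephrin receptor, was 1.53-fold the control level with PS80 (adjusted p = 1.58e-05) and did not pass with PS20 (log2 fold change 0.15, adjusted p = 0.149), with PS80 over PS20 at 0.46 (adjusted p = 2.01e-04). EPHA4 was lower with both, by a log2 fold change of -0.67 with PS80 (adjusted p = 0.00109) and -1.13 with PS20 (adjusted p = 2.57e-06). FGFR2 was lower with PS80 (-0.39, adjusted p = 0.00118) and with PS20 (-0.34). IGF1R was higher by 0.24 with PS80 and 0.26 with PS20, while MET was higher with PS20 (0.32) and did not pass with PS80 (0.02, adjusted p = 0.775). FGFR1 was at 20.2 ± 1.65 CPM with PS80, against 10.3 ± 1.324 CPM with PS20 (0.95, adjusted p = 3.67e-05), FGFR4 was likewise higher with PS80 (0.38), and MET was lower there (-0.30).

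Of 18 genes of the RAS-ERK cascade tested, 4 were higher and 2 lower with PS80, and 4 were higher and 5 lower with PS20, in both cases close to the share called over all genes (33.4% with PS80 and 48.3% with PS20). The adaptor SHC1 and the kinase MAP2K2 were higher with both, SHC1 by 0.24 with PS80 and 0.37 with PS20, and MAP2K2 by 0.26 with PS80 and 0.29 with PS20. Within replicates 1 and 2 the PS80 call of SHC1 (0.34, adjusted p = 0.0569) and both calls of MAP2K2 were lost (0.32 with PS80, adjusted p = 0.0592, and 0.28 with PS20, adjusted p = 0.0818). RPS6KA1, a kinase downstream of ERK, was higher with PS80 (0.39, adjusted p = 3.66e-05) and differed between the polysorbates (0.46, adjusted p = 3.87e-06). SOS2, a RAS exchange factor, was higher with PS20 (0.47, adjusted p = 1.91e-04) and lower with PS80 than with PS20 (-0.66, adjusted p = 5.59e-06), and SHOC2 was lower there too (-0.34).

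A list of 12 other regulators, labelled other feedback inhibitors in the plot, was also tested. It mixes feedback genes with inhibitors such as NF1, RASA1 and PEBP1, and it includes PTPN11, which promotes signalling. Of the 12, 2 were higher and 3 lower with PS80, and 2 were higher and 4 lower with PS20. These counts were near the share over all genes (33.4% and 48.3% called) and describe the mixed list. SPRY1, another Sprouty gene, was at 12.4 ± 2.38 CPM with PS80, 13.4 ± 2.12 CPM with PS20 and 6.74 ± 1.64 CPM in control (adjusted p = 2.58e-04 with PS80 and 4.01e-05 with PS20). PEBP1, an inhibitor of RAF, was lower with both, by -0.24 with PS80 (adjusted p = 9.22e-04) and -0.71 with PS20 (adjusted p = 7.65e-10), and the difference between the polysorbates passed (0.47, adjusted p = 7.09e-07). RASAL2, a RAS GTPase-activating protein, was lower by -0.30 with PS80 and -0.41 with PS20. SPRY3 was at a low level, with 1.804 ± 0.641 CPM with PS80, 0.612 ± 0.226 CPM with PS20 and 1.47 CPM in control. It was lower with PS20 than in control (-1.24, adjusted p = 0.0103) and did not pass with PS80 (0.34, adjusted p = 0.408). PS80 exceeded PS20 for SPRY3 (1.58), and CBL, a ubiquitin ligase that binds Sprouty, was higher there by 0.21. Within replicates 1 and 2 both calls between the polysorbates were lost, with CBL at 0.11 (adjusted p = 0.521) and SPRY3 at 1.64 (adjusted p = 0.0892).

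Among 9 other DUSP genes tested, 2 were higher and 2 lower with PS80, and 1 was higher and 2 lower with PS20. DUSP16, which acts on JNK and p38, was higher with PS80 (0.27, adjusted p = 0.00459) and with PS20 (0.49, adjusted p = 7.64e-06). PS80 stood below PS20 for DUSP16 (-0.21, adjusted p = 0.0185), a call lost at log2 fold changes of -0.17 to -0.22 without PS20 replicate 1 (adjusted p = 0.0514) or 2 (0.0673) or PS80 replicate 3 (0.0558) or 5 (0.0547), and within replicates 1 and 2 (0.170). DUSP3 was lower with PS80 (-0.34) and with PS20 (-0.35). DUSP2 was higher with PS80 (0.52, adjusted p = 0.0089) and did not pass with PS20 (0.29, adjusted p = 0.116) or between the polysorbates (0.23, adjusted p = 0.213), and its PS80 call was lost within replicates 1 and 2 (0.41, adjusted p = 0.185). DUSP23 was lower with PS20 (-0.37, adjusted p = 0.0208), a call lost at -0.29 to -0.30 without control replicate 5 (adjusted p = 0.0708) or PS20 replicate 1 (0.0568) and within replicates 3 to 5 (0.0600).

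Of 14 other ETS factors, Capicua and its partners tested, 1 was higher and 5 were lower with PS80, and 3 were higher and 2 lower with PS20. CIC, which encodes the repressor Capicua, was at 70.2 ± 3.44 CPM with PS80, 58.5 ± 5.01 CPM with PS20 and 79.9 ± 5.47 CPM in control, a log2 fold change of -0.19 with PS80 (adjusted p = 0.0315) and -0.45 with PS20 (adjusted p = 1.24e-05). PS80 exceeded PS20 for CIC by 0.26 (adjusted p = 0.00371). ETS2 was higher by 0.34 with PS80 and 0.32 with PS20, and ELF1 was lower by -0.27 with PS80 and -0.31 with PS20. ELF2 was lower with PS80 than in control (-0.28) and than with PS20 (-0.29), and the ETS repressor ERF was higher with PS80 than with PS20 (0.29). Within replicates 1 and 2, ELF2 lost both calls (-0.22 over control, adjusted p = 0.227, and -0.26 over PS20, adjusted p = 0.175). The PS80 over PS20 calls of CIC (0.36, adjusted p = 0.0537) and ERF (0.32, adjusted p = 0.0722) were also lost there.

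Of 12 other ERK-output transcripts tested, 8 were higher and none lower with PS80, and 8 were higher and none lower with PS20, where 17.4% of all tested genes were higher with PS80 and 24.4% with PS20. FOSL1, an AP-1 subunit, was at 4.77 ± 1.51 CPM with PS80, against 1.47 ± 0.475 CPM in control (log2 fold change 1.73, adjusted p = 1.84e-05), and was also higher with PS20 (1.198, adjusted p = 6.39e-04). CCND1, cyclin D1, was higher by 0.54 with PS80 (adjusted p = 4.36e-07) and 0.14 with PS20 (adjusted p = 0.0384), and the polysorbates differed (0.40, adjusted p = 7.92e-06). MYC was higher with both, at 126 ± 21.3 CPM with PS80, 116 ± 12.3 CPM with PS20 and 51.4 ± 11.2 CPM in control. EGR1, an immediate early factor, was at 92.3 ± 29.7 CPM with PS80, 39.6 ± 14.0 CPM with PS20 and 55.6 CPM in control. Over control it passed narrowly with PS80 (0.79, adjusted p = 0.0450) and did not pass with PS20 (-0.43, adjusted p = 0.269). PS80 exceeded PS20 for EGR1 (1.21, adjusted p = 0.00302). UPP1, a uridine phosphorylase, ran the other way, at 11.3 ± 1.58 CPM with PS80 and 18.5 ± 2.85 CPM with PS20 (-0.69, adjusted p = 9.16e-05), and over control it was higher by 0.36 with PS80 and 1.05 with PS20. MAFF, a small MAF factor, was higher by 0.89 with PS80 and 0.98 with PS20. The PS20 call of MAFF was lost within replicates 1 and 2 (0.61, adjusted p = 0.0849).

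**Figure D4:**
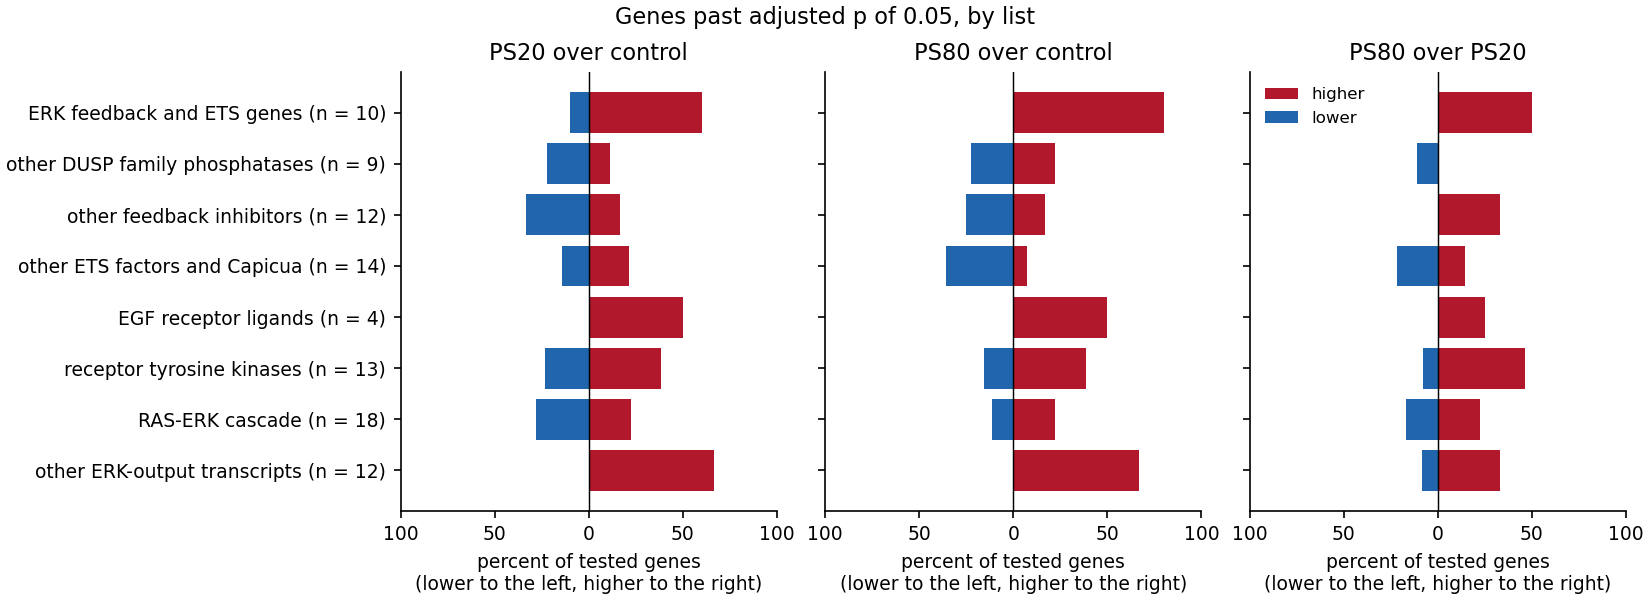
Share of tested genes in each list (rows, with the number tested) that passed an adjusted p of 0.05, higher to the right and lower to the left, in 3 panels for PS20 over control, PS80 over control and PS80 over PS20. The lists of EGF receptor ligands and other ERK-output transcripts have no lower gene against control. The lists of the cascade, receptors, other regulators (labelled other feedback inhibitors) and other ETS factors have both.

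The genes whose levels ran most like each of the 10 over the 15 libraries were, among 10240 genes with a mean of at least 5 CPM, TOMM20 for ETV5 (Pearson r = 0.973), ENAH for SPRED1 (0.970), IPO7 for ETV4 (0.964), IMPDH1 for SPRY2 (0.949), DIAPH3 for PHLDA1 (0.945), MGLL for SPRED2 (0.940), PTPRS for DUSP5 (0.936), FBN3 for SPRY4 (0.931), TTI1 for DUSP6 (0.896) and XRCC2 for DUSP4 (0.754). The 10240 genes all had a symbol, and clone-based names and names starting with LINC, MIR, SNOR, RNU or RN7 were left out. These coefficients describe likeness and carry no test, since the group differences and the shared libraries enter them. ETV4 and ETV5 had an r of 0.955 with each other, and neither was among the 3 nearest genes of the other.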

How the data were processed

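RNA was measured in 15 libraries, and the deposited tables hold whole-number read counts per gene without normalization. The authors' counting, per the file headers, was by featureCounts (2.0.0 in 11 libraries, 2.0.3 in 4) against GENCODE release 42 for reads of mapping quality 10 or more. No strand option was set, so in shared bases a gene and an antisense partner cannot be told apart. Whether reads there were counted for either gene was not tested. Low counts of a partner therefore do not show that it was silent. Per the submitters' processing notes, cutadapt, STAR 2.7.9a and DESeq2 1.32.0 were used with GRCh38. The labels name a poly(A) selected TruSeq preparation. Of 69215 identifiers, 62625 were paired with a symbol through the supplied name table, ignoring the version suffix.

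From these counts, tests were run with edgeR 4.0.16 (R 4.3.3), and DESeq2 1.42.0 served as an alternative. Genes were kept by filterByExpr (minimum count 10, minimum total 15), and TMM factors ranged from 0.978 to 1.02. One quasi-likelihood model with a term per group was fitted to all 15 libraries, and p-values were adjusted by Benjamini-Hochberg over 12769 genes. Fold changes are the first group over the second, given with SE, and CPM (mean ± SD) use TMM-scaled library sizes. Intervals are at the 95% level. Log2 CPM for likeness used a prior count of 2. The fits were checked on counts simulated with the same spread for every gene, so that check does not cover genes of wider spread.

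The 10 genes and the lists were chosen with earlier results of these data known. All 10 are described, and of each list up to 3 genes with the smallest p among those that passed are named per comparison. Replicate numbers in the titles were checked as pairs. Deviations of same-numbered PS80 and control libraries correlated at 0.102 to 0.304, while PS20 had lowest values of -0.0264 with control and 0.0741 with PS80. A differently numbered library correlated more highly for PS80 and control in replicates 1 (0.171 against 0.139) and 5 (0.215 against 0.125). The same held for PS20 and control in replicate 4, and for PS80 and PS20 in replicates 2 and 4. In all other cases, the majority, the same-numbered library correlated most highly. Examples are replicate 1 of PS20 and control (0.248 against 0.0704) and replicate 2 of PS80 and control (0.304 against 0.1575). These values do not settle which libraries are pairs, and the main fit used no replicate block. Alternatives were DESeq2's size factors and test, no filter, 2-group fits, the replicate block, replicates 1 and 2 or 3 to 5 alone, and leaving out each library.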

Additional observations from a re-analysis of the deposited data

Results flagged for a closer look

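In 3 of the 30 groups of 5 libraries examined (10 genes in 3 groups), 1 library stood apart from the other 4 by Dixon's criterion, which chance meets in about 1 of 20 groups. DUSP4 was at 4.04 CPM in PS80 replicate 1, against 1.55 to 2.15 CPM in the other PS80 libraries. SPRED2 was at 119 CPM in PS20 replicate 3, below the 132 to 136 CPM of the other PS20 libraries. DUSP6 was at 16.0 CPM in control replicate 1, against 5.86 to 8.34 CPM in the other controls. DUSP6 for PS20 over control had a log2 fold change of 0.48 with this library and 0.72 without it.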

How the results depend on the processing

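With DESeq2's test or size factors, none of the calls of the 10 genes changed. Of 660 values of the 10 genes under alternatives, 606 kept their direction and side of the threshold, 19 lost the call, 11 gained it and 24 changed sign, all of the last without a call. Replicates 1 and 2 alone called 2025 genes for PS80 over control, 3116 for PS20 over control and 1397 for PS80 over PS20, where all libraries called 4266, 6164 and 4526. For PS80 over PS20 that fit called 2 of the 10 genes, and leaving out 1 library called 3 to 6, against 5 (3 without PS20 replicate 3 or 4). The cause was not tested, but that fit has 6 libraries. The replicate block called 8 of the 10 genes for PS80 over control, 8 for PS20 over control and 6 for PS80 over PS20, adding DUSP6 in the last 2 (adjusted p = 0.00972 and 0.00727 by edgeR), and changed no other call of these genes. For DUSP6 the unfiltered fit also gained both calls (0.00493 and 8.66e-04), replicates 3 to 5 alone did (0.00646 and 0.0142), and so did, for PS80 over PS20, the 2-group fit (0.0268). ETV5 lost its PS80 over PS20 call in the 2-group fit (0.0605).

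Signs changed, without a call, for DUSP4 within replicates 3 to 5 (0.0021 for PS20 over control, -0.11 for PS80 over control, -0.12 for PS80 over PS20) and over single left-out libraries (PS20 over control, -0.18 to 0.087), for PHLDA1 with PS80 over control (-0.077 within replicates 3 to 5, -0.088 to 0.088 over left-out libraries), and between the polysorbates for SPRED1 (0.013 without a filter, 0.0031 within replicates 3 to 5, -0.083 to 0.045 over left-out libraries) and SPRED2 (0.026, 0.047 and -0.045 to 0.013). Depth limits DUSP4 most, at 8 to 85 counts per library.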

Other observations

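Replicate 1 held the highest level of its group for 7 of the 10 genes with PS80, 5 with PS20 and 4 in control. In PS80 replicate 1 these were DUSP4, DUSP6, SPRY2, SPRY4, SPRED1, ETV4 and ETV5, and in PS20 replicate 1 they were DUSP6, SPRY4, SPRED1, ETV4 and ETV5. The same count over all tested genes was not made, so whether this is particular to these genes was not tested. Noncoding neighbours of these genes were barely counted: SPRY4-AS1 averaged 0.193 ± 0.120 CPM with PS80, 0.239 ± 0.292 CPM with PS20 and 0.0357 ± 0.0501 CPM in control (n = 5 each), and PHLDA1-DT averaged 0.215 ± 0.169 CPM with PS80, 0.516 ± 0.302 CPM with PS20 and 0.405 ± 0.266 CPM in control. DHX8, which shares 1.94% of the exonic bases of ETV4 on the other strand, was at 84.0 ± 3.04 CPM with PS80, 77.0 ± 5.22 CPM with PS20 and 91.3 ± 1.71 CPM in control, lower on average with both polysorbates, where ETV4 was higher.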
